A study of Mus musculus with 6 samples.

Results

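Genes of vessel wall cells, 6 in number, were followed through every deposited barcode of a Drop-seq study of mouse brain myeloid cells. Rgs5, Vtn and Pdgfrb are markers of pericytes, and Acta2, Tagln and Myl9 are contractile genes of vascular smooth muscle. These 6 genes were picked from 19361 genes listed in at least 1 of the 6 libraries, because earlier results on the same libraries had shown some of them, so their levels are given as descriptions unless a test is named. All 6 were listed in 5 of the libraries. In the first naive library only Rgs5, Vtn and Acta2 were listed, and Pdgfrb, Tagln and Myl9 had 0 UMIs. A UMI, or unique molecular identifier, counts 1 captured transcript at its 3′ end, so counts do not grow with gene length.

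Mural cells wrap the vessels of the brain. Pericytes lie on capillaries inside the basement membrane and help to form the blood-brain barrier, and smooth muscle cells ring the arteries and arterioles and set their diameter. Pericytes are held to the vessel by PDGF-B from the endothelium, which acts on the receptor encoded by Pdgfrb. Rgs5 encodes an inhibitor of G protein signalling, and Vtn encodes vitronectin, a protein of the extracellular matrix. Acta2 encodes smooth muscle alpha-actin, Tagln the actin-binding protein transgelin, and Myl9 a regulatory light chain of smooth muscle and non-muscle myosin. Neither cell type carries Cd11b, the surface protein on which the cells of this study were enriched.

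All mice were female, aged 2 to 3 months and on a C57BL/6 background. Brains were perfused and dissociated with papain, and a Percoll gradient followed by magnetic enrichment for Cd11b gave the cells that were loaded. The metastasis group had 2 libraries, each of 1 brain, collected when E0771 mouse mammary carcinoma cells had been injected into the heart 2 to 3 weeks earlier, and the naive group had 2 libraries, each of 1 wild-type brain without metastases. A Cx3cr1-/- library and a Cx3cr1+/- library, called null and heterozygous here, each came from 2 pooled brains with E0771 metastases. Libraries metastasis 1 and naive 1 were sequenced on a HiSeq 2500 and the other 4 on a NextSeq 500. For the metastasis and naive libraries the names of the tables are swapped relative to the sample labels. The labels were followed, so any direction between these groups rests on the labels. A list of 8 carcinoma genes summed to 941.5 CPM in metastasis 1 against 65.5 CPM in naive 1, but to 14.2 CPM in metastasis 2 (7 UMIs) against 57.9 CPM in naive 2, and to 32.9 CPM in null and 54.7 CPM in heterozygous. In the second pair the list was thus lower in the library labelled metastasis. At these levels it does not mark metastases, since both naive libraries lay above null and heterozygous. Barcodes with a UMI of at least 3 of the 8 genes numbered 87 in metastasis 1 and 1 in null, with 0 in naive 1, metastasis 2, naive 2 and heterozygous. Whether the labels or the table names of the second pair are right was not tested.

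Each library held 1000 barcodes, with totals between 491621 UMIs in metastasis 2 and 2667099 in metastasis 1. Barcodes with a UMI of at least 3 of 10 microglia markers, called microglial here, numbered 368 in metastasis 1, 924 in naive 1, 683 in metastasis 2, 798 in naive 2, 958 in the null and 919 in the heterozygous library. The median share of mitochondrial UMIs was 2.96% in metastasis 1, 8.64% in naive 1, 3.60% in metastasis 2, 19.35% in naive 2, 19.4% in null and 20.3% in heterozygous. Cx3cr1 stood at 63.5 CPM, the UMIs of a gene per 1000000 UMIs, in the null library, against 1323 CPM in the heterozygous library. Pairs of libraries had at most 1 barcode sequence in common.

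The 3 pericyte genes were highest in naive 2, null and heterozygous and near 0 in metastasis 1 and naive 1. In metastasis 2 Rgs5 lay between these levels, while Vtn and Pdgfrb had 1 and 2 UMIs. Rgs5 reached 1.88 CPM in metastasis 1 (5 UMIs), 0.818 CPM in naive 1 (1 UMI), 52.9 CPM (26 UMIs) in metastasis 2, 246.5 CPM (400 UMIs) in naive 2, 155.9 CPM in null (275 UMIs) and 231 CPM in heterozygous (549 UMIs). Vtn followed with 3.75, 2.45, 2.03, 169.5, 69.2 and 117.4 CPM in the same 6 libraries. Metastasis 2 held 26 UMIs of Rgs5 and 1 of Vtn, whereas naive 2 held 400 and 275. Pdgfrb was the sparsest of the 3, with 10, 0, 2, 48, 20 and 51 UMIs in metastasis 1, naive 1, metastasis 2, naive 2, null and heterozygous. For Rgs5 the Poisson intervals of naive 2 and heterozygous overlapped at the top of the order, and those of metastasis 1 and naive 1 at the bottom. For Vtn the top 3 libraries were separate from one another beyond counting error and the bottom 3 were not, and for Pdgfrb every library overlapped its neighbour in the order.

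The smooth muscle genes had another order, led by the heterozygous library. Acta2 stood at 2.25 CPM in metastasis 1 (6 UMIs), 1.64 CPM in naive 1 (2 UMIs), 38.7 CPM in metastasis 2 (19 UMIs), 44.4 CPM in naive 2 (72 UMIs), 25.5 CPM in null (45 UMIs) and 117.4 CPM in heterozygous (279 UMIs). Tagln followed with 0.375, 0, 34.6, 32.0, 11.3 and 66.9 CPM in the same libraries, and Myl9 with 2.25, 0, 20.3, 35.1, 18.7 and 74.1 CPM. For all 3 genes the heterozygous library lay above every other library beyond its 95% Poisson interval. Metastasis 2 and naive 2 overlapped for each of the 3, and metastasis 1 and naive 1 were the lowest. Where a count was 0, as for Tagln in naive 1, a floor of 3 UMIs allows up to 2.45 CPM.

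**Figure D1:**
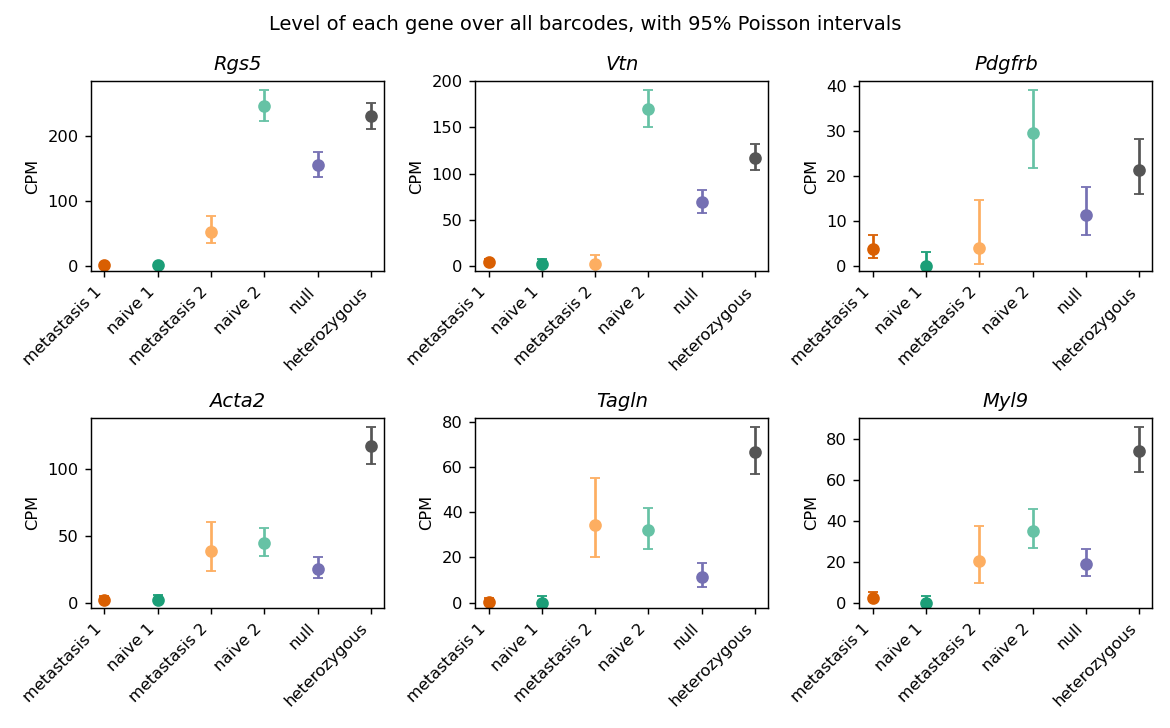
Level of the 6 genes in UMIs per 1000000 UMIs (CPM, linear axes) over all 1000 barcodes of each library, with a point per library and bars for the 95% Poisson interval, which covers counting error only. Rgs5, Vtn and Pdgfrb were highest in naive 2 and the 3 smooth muscle genes in the heterozygous library, and all 6 were near 0 in metastasis 1 and naive 1.

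Whether the genes differed between brains with and without metastases was tested on UMIs summed per library, since barcodes are not replicates. With the quasi-likelihood test of edgeR and Benjamini-Hochberg adjustment, 0 of the 4 members that passed the filter were called at an adjusted p under 0.05, beside 0 of 9678 genes tested (0% called). At an unadjusted p under 0.05 there were 71 genes, and 0 of the 4 tested members were among them, while DESeq2 called 5 genes, which were not among the 6. Only 4 of the 6 passed the filter on low counts, and Vtn and Pdgfrb did not. The log2 change in metastasis against naive was -2.30 (SE 2.17) for Rgs5, -0.32 (SE 1.65) for Acta2, -0.06 (SE 2.08) for Tagln and -0.86 (SE 1.83) for Myl9, each with an adjusted p of 0.9997 in edgeR. The 2 libraries within each group were far apart. Naive 2 exceeded naive 1 by a log2 ratio of 8.24 for Rgs5 (95% counting interval 5.75 to 13.54) and 4.76 for Acta2 (2.86 to 7.83), and by at least 3.59 for Pdgfrb, 3.71 for Tagln and 3.84 for Myl9 against a floor of 3 UMIs in naive 1. The replicate number was also the sequencer, and the contribution of the sequencer was not tested. In microglial barcodes alone edgeR again called 0 of the 4 members that passed the filter, beside 0 of 9318 tested (0%), with 96 genes at an unadjusted p under 0.05 and 0 called by DESeq2. The log2 change there was -3.07 (SE 2.18) for Rgs5 and -1.61 (SE 1.78) for Myl9. Vtn (adjusted p = 1.88e-05, edgeR) was called in the fit of all barcodes only when the filter on low counts was dropped, from 10 and 1 UMIs in metastasis 1 and metastasis 2, against 3 and 275 UMIs in naive 1 and naive 2.

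Within the pair sequenced on the NextSeq 500, the pericyte genes were lower in metastasis 2 beyond counting error and the smooth muscle genes were not, over all barcodes. Metastasis 2 against naive 2 gave log2 ratios of -2.22 for Rgs5 (-2.85 to -1.65), -6.38 for Vtn (-11.69 to -3.89, from 1 UMI in metastasis 2) and -2.86 for Pdgfrb (-5.95 to -0.93). Acta2 was at -0.20 (-1.01 to 0.55), Tagln at 0.11 (-0.77 to 0.92) and Myl9 at -0.79 (-1.92 to 0.19), so each of these 3 intervals held 0. Myl9 did not keep to this: without the 3 barcodes of each library with most UMIs of the 6 genes it was at -2.45 (-4.77 to -0.82), and in microglial barcodes at -1.69 (-3.62 to -0.24). In barcodes with at least 400 genes and under 10% mitochondrial UMIs, Pdgfrb was at -0.89 (-4.06 to 1.20), from 2 UMIs in metastasis 2 and 16 in naive 2. The intervals cover counting error between 2 libraries and not the spread between brains, and the carcinoma genes, lower in metastasis 2, do not settle the labels of this pair. Within the HiSeq 2500 pair every gene had 10 UMIs or fewer in each library, and no ratio is given. The endothelial list was lower in metastasis 2 too, at 89.5 CPM (44 UMIs) against 1513 CPM (2454 UMIs) in naive 2. The 2 libraries also differed in median mitochondrial share (3.60% and 19.35%) and median depth (323.5 and 1016 UMIs). In these sums fewer mural cells, less RNA per cell, fewer vessel fragments, less free RNA and differences in preparation cannot be told apart.

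A list of 10 other pericyte genes was likewise highest in naive 2, with sums of 22.5, 3.27, 18.3, 197.2, 71.4 and 133.8 CPM in metastasis 1, naive 1, metastasis 2, naive 2, null and heterozygous. In metastasis 1 Anpep alone gave 14.25 CPM (38 UMIs), and this gene had 0 UMIs in the pericyte-led barcodes defined below. The list of 10 further smooth muscle genes summed to 814 CPM in metastasis 1, where Acta2 was at 2.25 CPM. Of these, Cald1 made up 655.4 CPM and Tpm2 110.2 CPM, both of which are also made outside muscle, while Myh11, the smooth muscle myosin heavy chain, stood at 0.750 CPM and Cnn1 and Pln at 0. In the heterozygous library Myh11 stood at 74.5 CPM. Between metastasis and naive, edgeR called 0 of the tested genes in either list, of which 1 and 4 passed the filter. It also called 0 among 5 tested of 8 partners of PDGF and vitronectin signalling and 0 among 8 tested of 9 regulators of the smooth muscle programme, with median log2 changes of -0.20 and -0.38 beside 0.02 over all genes tested. Microglial barcodes below 5 UMIs of the 6 genes held 3820 UMIs of Itgb5 from the first list. From the second they held 7480 of Tgfbr1 and 3 of Myocd. These medians over whole libraries therefore say little of mural cells.

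The UMIs of the 6 genes were spread over many barcodes and concentrated in few. At least 1 UMI was present in 26 barcodes of metastasis 1, 5 of naive 1, 38 of metastasis 2, 394 of naive 2, 271 of null and 476 of heterozygous, which is 1210 of 6000 barcodes or 20.2%. Of these, 813 held exactly 1 UMI. Barcodes with 5 or more UMIs of the 6 genes together, called mural-rich here, numbered 39, with 1 in metastasis 1, 0 in naive 1, 1 in metastasis 2, 12 in naive 2, 6 in null and 19 in heterozygous. Just outside this limit, 37 barcodes held 4 UMIs, and just inside it, 2 held 5. In naive 2, 2 pairs of mural-rich barcodes had sequences that differed by 1 lost base or 1 letter, and counting each pair once leaves 37.

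The 39 mural-rich barcodes divided mainly into a group with pericyte genes and a smaller group with smooth muscle genes. When at least 80% of a barcode's UMIs of the 6 genes came from Rgs5, Vtn and Pdgfrb it was called pericyte-led, and when at most 20% did it was called smooth muscle-led. This gave 30 pericyte-led barcodes, of which 1 was in metastasis 1, 11 in naive 2, 6 in null and 12 in heterozygous. It gave 4 smooth muscle-led barcodes, all heterozygous, and 5 mixed ones, of which 1 was in metastasis 2, 1 in naive 2 and 3 in heterozygous. These names rest on the same counts that chose the barcodes and on limits along a range, so they describe the counts and carry no test.

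Rgs5 and Vtn shared most of the pericyte-led barcodes. The 30 barcodes together held 484 UMIs of Rgs5, found in 28 of them, 447 of Vtn in 25 and 48 of Pdgfrb in 21. All 3 genes were present in 18. Acta2 gave 3 UMIs and Tagln 2 in the same barcodes, and 25 of the 30 had neither. Myl9 crossed the division, with 58 UMIs in 16 pericyte-led barcodes, against 65 UMIs in the 4 smooth muscle-led ones. Relative to total UMIs it was far lower in the pericyte-led barcodes, at 295.6 CPM against 5617 CPM.

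Acta2, Tagln and Myl9 were all present in each of the 4 smooth muscle-led barcodes, which held 106, 58 and 65 UMIs of them and 1 UMI of Rgs5, with 0 of Vtn and 0 of Pdgfrb. A single heterozygous barcode held 85 of these Acta2 UMIs, 42 of Tagln and 50 of Myl9, with 0 UMIs of the 3 pericyte genes, and the 6 genes made up 4.75% of its 3729 UMIs. The next held 16, 11 and 9. A heterozygous mixed barcode carried 8 UMIs of Rgs5 and 3 of Pdgfrb beside 14 of Acta2, 11 of Tagln and 3 of Myl9, together with 8 of 10 endothelial markers. The mural-rich barcode of metastasis 2 was also mixed, with 13 UMIs of Rgs5, 2 of Pdgfrb, 3 of Acta2, 3 of Tagln and 5 of Myl9 among only 798 UMIs.

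**Figure D2:**
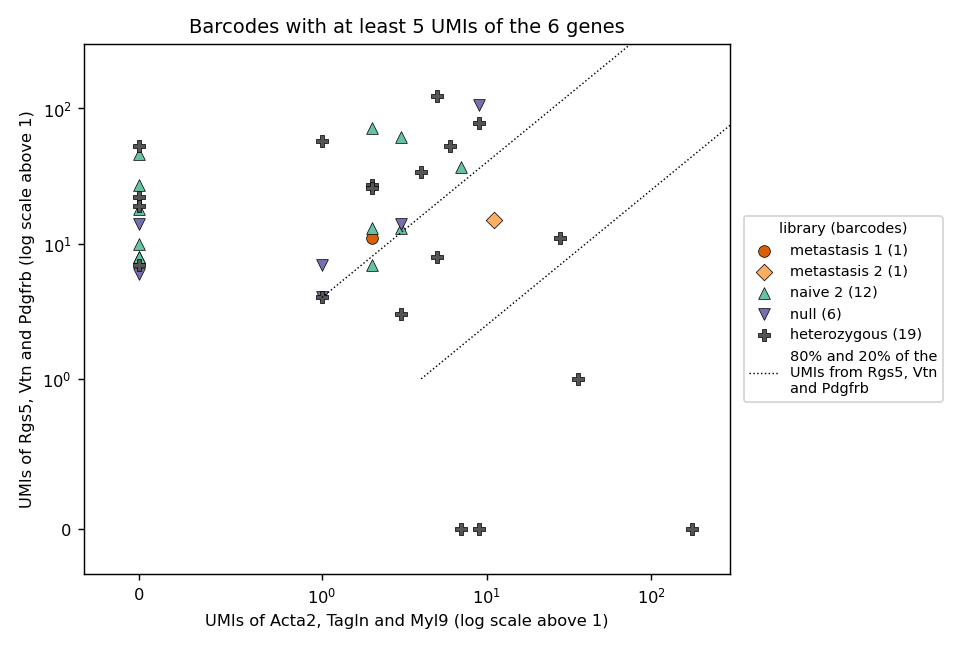
Each point is 1 of the 39 barcodes with at least 5 UMIs of the 6 genes, placed by its UMIs of Acta2, Tagln and Myl9 (horizontal axis) and of Rgs5, Vtn and Pdgfrb (vertical axis), on axes that are linear up to 1 and logarithmic above. Dotted lines mark 80% and 20% of UMIs from the pericyte genes, with 30 barcodes on or above the upper line, 4 heterozygous barcodes below the lower one and 5 between them.

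Genes outside the 6 were looked at in the same barcodes. Of the 30 pericyte-led barcodes, 20 carried at least 3 of 10 other pericyte markers, led by Kcnj8 (97 UMIs), Higd1b (75), Abcc9 (43) and Mcam (33). Kcnj8 and Abcc9 encode the subunits of a potassium channel of pericytes. At least 3 endothelial markers were present in 15 of the 30, and 13 carried both sets, while 7 had the pericyte set without the endothelial one. At least 3 of 10 other smooth muscle markers were also present in 9 of the 30. Of the 4 smooth muscle-led barcodes, 0 carried 3 endothelial markers, 1 carried at least 3 of the other pericyte markers and 3 carried at least 3 of the other smooth muscle markers, led by Cald1 (37 UMIs), Myh11 (34), Lmod1 (22) and Tpm2 (22). The barcode richest in Acta2 carried 9 of those 10.

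Endothelial genes were among those that differed most between the 2 kinds of barcode. Ranked on summed CPM with 50 CPM added, over 2261 genes, the leading genes of pericyte-led against smooth muscle-led barcodes were Apod, Ctla2a, Ly6c1, Cldn5, Flt1, Egfl7, Pglyrp1, Fkbp1a, Slco1a4 and Ly6a. Cldn5, a tight junction protein of brain endothelium, had 472 UMIs in pericyte-led and 0 in smooth muscle-led barcodes. Nearly all of these lay in the 15 pericyte-led barcodes with at least 3 endothelial markers, since the others held 4 UMIs of Cldn5, and their endothelial list summed to 525.8 CPM, against 11700 CPM over all 30. Apod is also on the list of olfactory ensheathing glia, and 492 of its 1068 UMIs lay in those other barcodes. They include a barcode of naive 2 with 5 of 7 markers of that list. The leading genes of smooth muscle-led barcodes were Ttr, Lmod1, Myh11, Tpm2, Mylk, Crip1, Tpm1, Flna, Gm13889 and Ccl3. Myh11 had 15 UMIs in pericyte-led and 34 in smooth muscle-led barcodes, and Lmod1, a nucleator of actin filaments in smooth muscle, had 1 and 22. The totals behind them were 196242 and 11571 UMIs, so genes at 0 in the smaller group are weakly bounded. All 4 smooth muscle-led barcodes were heterozygous, against 12 of the 30 pericyte-led ones, so the ranking mixes class with library. A choroid plexus and ependymal list that holds Ttr was highest in the heterozygous library, at 2367 CPM over all barcodes.

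The label of pericyte did not suit every barcode. A barcode of naive 2 held 18 UMIs of Vtn and 0 of Rgs5 and Pdgfrb, with 0 of 10 other pericyte markers, 5 of 7 markers of olfactory ensheathing glia and 6 of 8 astrocyte markers. Microglia markers were also widespread: 32 of all 39 mural-rich barcodes carried at least 3 of 10, and 26 of the 30 pericyte-led ones did. The microglia list summed to 1855 CPM in pericyte-led barcodes and 7432 CPM in smooth muscle-led ones, against 10645 CPM in microglial barcodes that were not mural-rich. The pericyte-led barcodes ranged from 671 to 49921 UMIs, and the limit of 5 UMIs takes no account of depth. A heterozygous pericyte-led barcode held 5 UMIs of the 6 genes among 13490, with 7 of 10 microglia markers and 1 other pericyte marker. A heterozygous mixed one held 6 among 11325, with 10 of 10 microglia markers. For such deep barcodes the names mural-rich and pericyte-led do not mean a mural cell. Whether a barcode held a single cell, several cells or free RNA was not tested.

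Outside the mural-rich barcodes the division between the genes was of another kind. In naive 2, 160 of 275 Vtn UMIs and 145 of 400 Rgs5 UMIs lay in mural-rich barcodes, yet 0 of 72 Acta2 and 0 of 52 Tagln UMIs did. Those Acta2 UMIs were scattered over 64 barcodes, 57 of them with exactly 1, and Tagln over 49. In the null library 1 of 45 Acta2 and 1 of 20 Tagln UMIs lay in mural-rich barcodes. The heterozygous library differed, with 124 of 279 Acta2 UMIs in mural-rich barcodes, and even there 132 of the 150 barcodes with Acta2 held exactly 1 UMI of it. Vtn was the most concentrated of the 6 in the heterozygous library, with 226 of 279 UMIs, or 81.0%, in mural-rich barcodes.

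**Figure D3:**
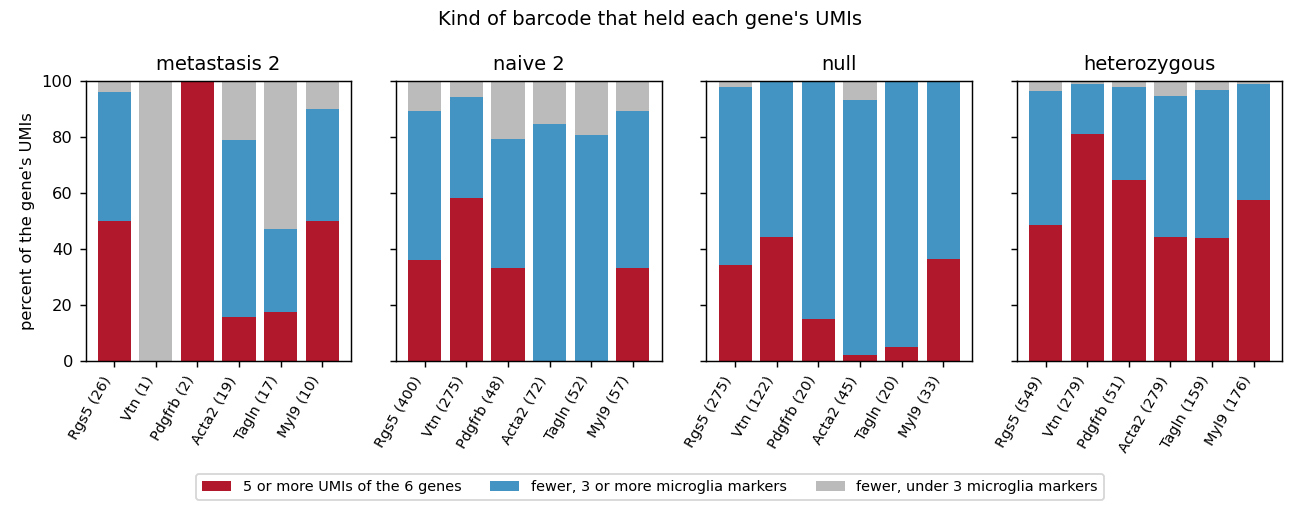
Share of each gene's UMIs (percent, with the number of UMIs in brackets) in barcodes with 5 or more UMIs of the 6 genes, in other barcodes with at least 3 microglia markers, and in the rest, for the 4 libraries with at least 75 UMIs of the 6 genes. Acta2 and Tagln had no share in the richest barcodes of naive 2, and 81.0% of heterozygous Vtn lay there.

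Microglial barcodes below 5 UMIs of the 6 genes were then examined per library. At least 1 UMI of any of the 6 genes was present in 2.72% of 368 such barcodes in metastasis 1 (95% Clopper-Pearson interval 1.31 to 4.94), in 0.541% of 924 in naive 1 (0.176 to 1.26), in 3.66% of 683 in metastasis 2 (2.38 to 5.36) and in 39.7% of 788 in naive 2 (36.3 to 43.2). It was present in 27.0% of 953 in the null library (24.2 to 29.9) and in 46.8% of 902 in the heterozygous library (43.5 to 50.1). Median depths in these barcodes were 2004, 778, 349, 1090, 1283 and 1522 UMIs in that order of libraries. When every barcode was thinned to 300 UMIs, the shares became 0.272%, 0.216%, 2.49%, 10.7%, 6.93% and 9.65%, with 201 shallower barcodes of metastasis 2 left out and none in the other libraries. At 300 UMIs metastasis 1 and naive 1 were the lowest. Thinned to 800 UMIs, metastasis 2 kept 54 barcodes with 0 positive, which allows up to 5.56%, beside 1.09% in metastasis 1 and 0.452% in naive 1, so at that depth these 3 libraries have no order.

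Barcodes with fewer than 3 microglia markers were the comparison for background. Thinned in the same way and below 5 UMIs of the 6 genes, they held a UMI in 0.634% in metastasis 1, 0% of 76 in naive 1 (which allows up to 3.95%), 6.40% in metastasis 2, 36 of 200 barcodes in naive 2, 14.6% in null and 8.86% in heterozygous. In no library except naive 1 and the heterozygous one was the share in microglial barcodes above that in the others, and in both of these the 95% intervals overlapped. Shares in microglial barcodes at or below this level are not read as expression. The comparison barcodes are not free of cells: 272 of 632 in metastasis 1, 202 of 317 in metastasis 2 and 134 of 202 in naive 2 held 2 microglia markers. The part of free RNA was not tested. The endothelial list, which microglia also lack, had a like order over the libraries in the same microglial barcodes, with 67.9, 27.1, 94.0, 684.8, 296.7 and 524.2 CPM.

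The mixture of the 6 genes in these microglial barcodes was not that of the mural-rich ones. Acta2, Tagln and Myl9 made up 28.8% of the UMIs of the 6 genes in microglial barcodes of naive 2 (24.8 to 33.2), against 5.59% in its mural-rich barcodes (3.40 to 8.59). The same shares were 23.8% and 8.49% in null, and 47.4% and 35.9% in heterozygous. Vtn made up 16.0% of Rgs5 and Vtn UMIs in heterozygous microglial barcodes, against 45.8% in the mural-rich ones, and in naive 2 these shares were 31.8% and 52.5%. Mural-rich barcodes were chosen for their UMIs of these genes, so the contrast is a description.

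In naive 2, null and heterozygous the summed CPM of the 6 genes was also higher in microglial barcodes with more mitochondrial UMIs, which were shallower. In microglial barcodes of naive 2 below 5 UMIs of the 6 genes, they summed to 557.7 CPM where mitochondrial UMIs made up 10% or more (622 barcodes), against 133.8 CPM where they made up less (166 barcodes). The corresponding sums were 267.9 and 83.8 CPM in null, and 465.2 and 125.9 CPM in heterozygous. In all 3 libraries the Poisson intervals of the 2 classes were apart. CPM divides by depth, and the barcodes with a lower mitochondrial share were deeper. In naive 2 the 622 barcodes held 679596 UMIs in all and the 166 held 665310. In null 802 barcodes held 1078579 and 151 held 620309, and in heterozygous 669 held 1034021 and 233 held 1152066. In naive 2 the pericyte and smooth muscle genes had 271 and 108 UMIs in the 622 barcodes and 62 and 27 in the 166. In null they had 225 and 64 UMIs in the 802 barcodes and 35 and 17 in the 151. In heterozygous they had 246 and 235 in the 669 and 83 and 62 in the 233. Per barcode, UMIs of the 6 genes together differed much less between the classes than CPM did. The cut below 5 UMIs takes no account of depth either. The 10 microglia markers went the other way, with 7368 and 12116 CPM in naive 2, 10159 and 13927 CPM in null, and 7674 and 12526 CPM in heterozygous. The endothelial list was higher with more mitochondrial UMIs too, at 927 and 437.4 CPM in naive 2, 336.6 and 227.3 in null, and 668.3 and 394.9 in heterozygous. The parts of depth and of RNA quality in the levels of the 6 genes were not tested.

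**Figure D4:**
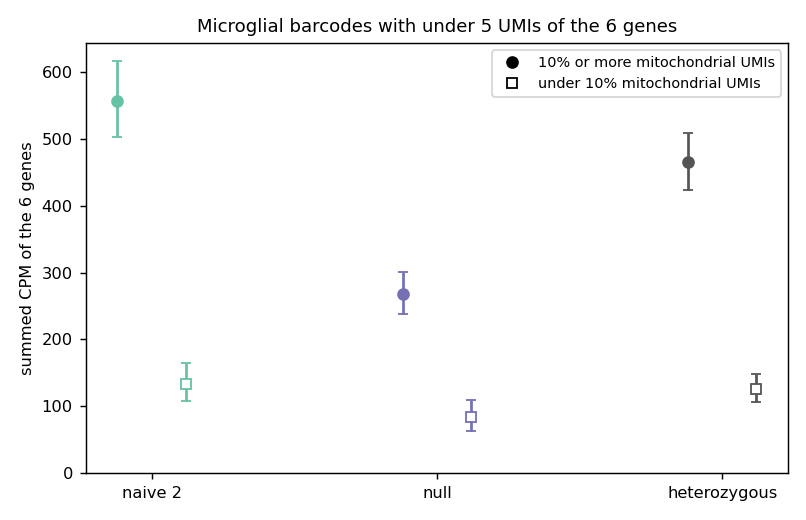
Summed level of the 6 genes (CPM) in microglial barcodes with under 5 UMIs of them, for barcodes with 10% or more mitochondrial UMIs (filled circles) and with less (open squares), with 95% Poisson intervals. In naive 2, null and heterozygous the filled circles stand at 557.7, 267.9 and 465.2 CPM, above the open squares at 133.8, 83.8 and 125.9 CPM. The barcodes of the open squares were deeper.

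The loss of Cx3cr1 was represented by 1 null and 1 heterozygous library, so the comparison has no test and its intervals cover counting error only. Over all barcodes the log2 ratio of null over heterozygous was -0.57 for Rgs5 (-0.78 to -0.36), -0.76 for Vtn (-1.08 to -0.45) and -0.92 for Pdgfrb (-1.75 to -0.15). For the contractile genes it was -2.20 for Acta2 (-2.69 to -1.74), -2.56 for Tagln (-3.31 to -1.89) and -1.98 for Myl9 (-2.57 to -1.44). A ratio of -1 or below with an interval under 0 was thus met by 3 of the 6, all smooth muscle genes, beside 3.24% of 10443 genes with at least 20 UMIs, and the median over those genes was -0.06. In barcodes with at least 400 genes and under 10% mitochondrial UMIs 4 of the 6 met it, beside 3.44% of 8770 genes, since Pdgfrb was then at -1.82 (-3.80 to -0.30), from 4 UMIs in null and 27 in heterozygous. The members were partly picked for this contrast, so nothing is read from the count.

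The pericyte genes were no longer all lower in null when all mural-rich barcodes were set aside, a cut made on the UMIs of the 6 genes themselves. In microglial barcodes below 5 UMIs of the 6 genes, Acta2 was at -1.41 (-1.95 to -0.90), Tagln at -1.78 (-2.58 to -1.05) and Myl9 at -1.43 (-2.21 to -0.72), beside 2.90% of 10241 genes that met the same limit. In those barcodes Rgs5 was at -0.22 (-0.50 to 0.06), from 175 UMIs in null and 262 in heterozygous. Vtn was at 0.81 (0.26 to 1.36), higher in null, from 68 UMIs in null and 50 in heterozygous, and Pdgfrb was at 0.36 (-0.70 to 1.42). Over all barcodes the sign of Vtn was the opposite, and there 54 of 122 null Vtn UMIs and 226 of 279 heterozygous ones lay in mural-rich barcodes. Leaving out the 3 barcodes of each library with most UMIs of the 6 genes gave -1.67 for Acta2, -2.19 for Tagln and -1.91 for Myl9. The pericyte genes were then lower in null too, with -0.82 for Rgs5 (-1.07 to -0.57), -0.81 for Vtn (-1.23 to -0.41) and -0.95 for Pdgfrb (-1.82 to -0.14). With mural-rich ones kept, Vtn in microglial barcodes was at -0.70 (-1.02 to -0.39). Vtn was thus higher in null only where all mural-rich barcodes were left out. Choroid plexus and ependymal genes, led by Ttr, were also lower in null, at 1156 CPM in these microglial barcodes against 2361 CPM in heterozygous. Markers of olfactory ensheathing glia stood at 40.6 CPM in null against 308.8 CPM in heterozygous, the other smooth muscle genes at 151.9 against 308.8 CPM, and endothelial genes at 296.7 against 524.2 CPM. The part of these cell types in the result was not tested.

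**Figure D5:**
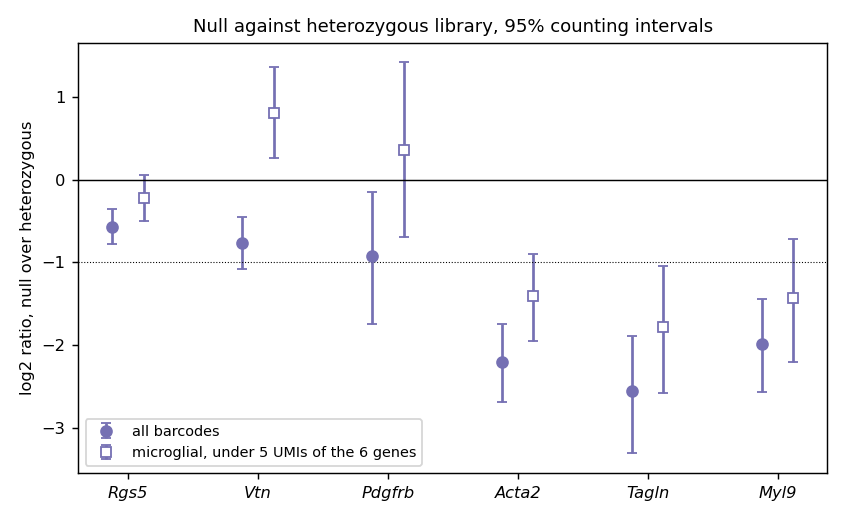
Log2 ratio of CPM in the null library over the heterozygous library for each of the 6 genes, over all barcodes (filled circles) and in microglial barcodes with under 5 UMIs of the 6 genes (open squares), with 95% counting intervals. The dotted line marks -1. Acta2, Tagln and Myl9 lie below it in both, whereas Vtn is at -0.76 over all barcodes and 0.81 in the microglial ones with under 5 UMIs of the 6 genes.

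The likeness of other genes to each of the 6 was weak everywhere, as is common in sparse counts. It was measured as Pearson's r of log2(1 + UMIs per 10000) over 5608 barcodes with at least 300 UMIs, which share libraries and depth, among 12062 genes. Vtn was most like Higd1b (0.27), Kcnj8 (0.26), Ndufa4l2, Ptn and Sod3, and Pdgfrb was most like Higd1b (0.22), Vtn (0.21), Zic1, Egflam and Kcnj8. Rgs5 was led by mt-Rnr2, a mitochondrial ribosomal RNA (0.22), Igfbp7, Ptn, Higd1b and Car4. Acta2 was most like Notch3 (0.13), Ttr, Lmod1, mt-Rnr2 and Myh11, and Tagln was most like Myl9 (0.13), Lmod1, Ntn4, Acta2 and Sparcl1. Myl9 had Egflam (0.23), Igfbp7, Higd1b, S1pr3 and Kcnj8 as its leading genes, of which Higd1b and Kcnj8 are on the list of other pericyte genes. Its r was 0.14 with Rgs5, 0.14 with Vtn and 0.13 with Pdgfrb, against 0.11 with Acta2 and 0.13 with Tagln. Its r with Pdgfrb and with Tagln was thus nearly the same. Vtn and Tagln had an r of -0.003, the lowest among the 6.

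Sequence upstream of the genes was compared for the CArG box, the element bound by serum response factor in many smooth muscle genes, made of CC, a run of A or T bases and GG. It reads as its own reverse complement pattern, so the search covers both strands. Promoters of 4 of the 6 genes were read from RefSeq on GRCm38.p6, as the 250 bases before the start that RefSeq gives. Myl9 lies at chr2:156775420-156781658 on the plus strand, Acta2 at chr19:34241090-34255590 on the minus strand and Rgs5 at chr1:169655501-169695813 on the plus strand, as whole genes of the GENCODE annotation. Vtn lies at chr11:78499091-78502324 on the plus strand and Tagln at chr9:45929619-45936058 on the minus strand. The RefSeq starts of Acta2, Myl9 and Vtn lie inside these GENCODE genes, so that 217 bases of the Acta2 window, 44 of the Myl9 window and 29 of the Vtn window fall within the gene, and both Acta2 matches lie after the GENCODE start. The Acta2 and Myl9 windows are shown as those with a match and the Rgs5 window as one without, 5′ to 3′ on the gene's strand, with matches in capitals that allow 1 G or C inside the box.
Acta2, chr19:34255374-34255623, minus strand: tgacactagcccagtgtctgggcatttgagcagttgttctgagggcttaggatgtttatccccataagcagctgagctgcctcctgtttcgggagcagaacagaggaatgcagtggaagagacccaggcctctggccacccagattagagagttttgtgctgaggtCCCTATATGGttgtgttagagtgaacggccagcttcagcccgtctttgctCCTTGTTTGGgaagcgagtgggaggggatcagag
Myl9, chr2:156775214-156775463, plus strand: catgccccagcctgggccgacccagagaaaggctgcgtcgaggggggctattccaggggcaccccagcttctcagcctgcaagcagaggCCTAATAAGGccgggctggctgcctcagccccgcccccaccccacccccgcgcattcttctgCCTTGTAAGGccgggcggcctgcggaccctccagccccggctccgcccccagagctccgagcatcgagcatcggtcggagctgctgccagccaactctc
Rgs5, chr1:169655251-169655500, plus strand: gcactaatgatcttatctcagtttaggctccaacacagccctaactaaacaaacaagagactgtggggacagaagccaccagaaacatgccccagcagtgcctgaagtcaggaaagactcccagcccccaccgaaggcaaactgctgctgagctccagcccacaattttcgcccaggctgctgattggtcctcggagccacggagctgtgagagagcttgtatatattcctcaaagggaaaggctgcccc
Acta2 had 2 matches, which began 84 and 34 bases before its RefSeq start, each with 1 G or C inside. Myl9 had 2, which began 161 and 99 bases before its RefSeq start, of which 1 had A or T throughout the run. The Rgs5 and Vtn windows had none. Over 32851 promoter windows of this length, 1.47% held the box with A or T throughout and 8.59% held it with at most 1 G or C inside. A match here is a run of letters and not a measured binding site.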

How the data were processed

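The authors deposited 1 table of UMI counts per library, raw whole numbers per gene and barcode with 1000 barcodes each, a unit that follows from the values themselves. STAR, Seurat and mm10 are named, per the submitters' processing notes, and for versions, settings and the choice of barcodes the sources used here give nothing. All deposited barcodes were used, and doublets were neither called nor removed. A gene not listed in a table was taken as 0 UMIs.

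Counts were summed per library and tested with edgeR 4.0.16 in R 4.3.3 (TMM, filterByExpr, quasi-likelihood, Benjamini-Hochberg adjusted p under 0.05) with 2 metastasis and 2 naive libraries. DESeq2 1.42.0 was an alternative. No label describes separate handling of the brains, so the p-values reflect only the spread between libraries, which may be technical. Levels carry exact Poisson, shares exact Clopper-Pearson and ratios exact conditional intervals at 95%, which cover counting error only. A count of 0 has a floor of 3 counts. Thinning drew 300 UMIs per barcode. The null and heterozygous groups have 1 library each and no test. The deviations of same-numbered libraries from their group means correlated at -0.42 over 9377 genes. With 2 libraries per group this cannot show whether they pair, and same-numbered libraries shared a sequencer.

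The 6 genes, the marker lists and the limits on UMIs were chosen with earlier results of these data known. Named genes were the 6 members, of every list up to 4 with most UMIs, the 5 most correlated genes per member, and the 10 genes per direction between pericyte-led and smooth muscle-led barcodes. The edgeR test was checked on simulated counts with a set spread between libraries that was not taken from these data. The check therefore says nothing of the power to find changes here. Other settings are in the closing section.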

Additional observations from a re-analysis of the deposited data

How the results depend on the processing

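Between metastasis and naive, 0 genes and 0 members were called in edgeR over all barcodes and in microglial barcodes, also with RLE size factors, with barcodes of at least 400 genes and under 10% mitochondrial UMIs, and with each library left out (lowest 0, highest 0). In microglial barcodes 0 members passed the filter in the barcodes of at least 400 genes and without naive 2, and 1 did with at least 5 markers, so those fits say little or nothing of the members. Over all barcodes DESeq2 called 5 genes. Without the filter on low counts edgeR called 110 genes and 1 member (Vtn) over all barcodes, and 101 genes and 2 members (Rgs5 and Vtn) in microglial barcodes, and the cause was not tested. With the replicate block 0 genes were called in both. Whether the numbers pair the libraries beyond the sequencer is not known. The correlation of same-numbered libraries was negative, so a crossed replicate block was added after seeing the data. It called 1 gene over all barcodes and 0 in microglial ones.

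The uncalled log2 changes turned sign easily. Over all barcodes Tagln was at 0.18 with DESeq2 and 0.41 with the replicate block, and Myl9 was at 0.39 with the block. In microglial barcodes defined by at least 2 markers Tagln was at 0.18. Leaving out each library in turn gave, over all barcodes, -6.02 to 4.70 for Rgs5, -3.38 to 3.32 for Acta2, -5.23 to 7.58 for Tagln and -2.99 to 6.95 for Myl9, with the 4 highest values without naive 2. In microglial barcodes Acta2 ranged from -7.81 without metastasis 2 to 0.48 without metastasis 1 over 3 fits, as it was not tested without naive 2.

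Of all 238 alternative values, 184 were labelled the same, 41 moved, 12 changed sign and 1 gained a call. The same means an unchanged direction and side of the threshold, or a value near the main one. For counts, near means within a set fold and not within a measured spread. By that rule 28 barcodes with at least 10 UMIs of the 6 genes were labelled the same as the 39 mural-rich ones. So were the 26 with at least 400 genes and under 10% mitochondrial UMIs. The counts of barcodes depend on the limits. With at least 3 UMIs of the 6 genes 139 barcodes were mural-rich, of which 71 were pericyte-led, 10 smooth muscle-led and 58 mixed. With at least 10 UMIs 2 were smooth muscle-led and 3 mixed. With shares of 0.7 and 0.3 as limits 3 were mixed, and with 0.9 and 0.1 19 were pericyte-led and 16 mixed.

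Limits are the 2 libraries per group, 1 per Cx3cr1 genotype, the shallow metastasis 2, and 10 UMIs or fewer of each gene in metastasis 1 and naive 1. At these depths absence of a gene from a barcode cannot be shown.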
